A study of Drosophila melanogaster with 32 samples.

Results

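Dense clusters of Hrp48 HyperTRIBE sites are short stretches of a transcript with many edited adenosines. A clustered site was one listed as edited in both Hrp48 HyperTRIBE libraries of Drosophila S2 cells, with at least 4 other such sites of the same gene within 100 bases. Of the 10851 sites listed in both libraries, 328 were clustered (3.02%), while 33835 sites were listed in any of the 7 libraries used. The clustered sites formed 100 clusters in 97 genes, out of 3220 genes with a site in both libraries. The sites were thus chosen by their listing in these libraries, that is by coverage, editing and spacing, so their numbers, spacing and editing levels with Hrp48 HyperTRIBE are a description and carry no test.

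TRIBE marks the targets of an RNA-binding protein by joining it to the catalytic domain of ADAR, the enzyme that deaminates adenosine to inosine in double-stranded RNA. Inosine is read as guanosine after sequencing, so a site's editing level is the percentage of reads with the edited base. HyperTRIBE uses a catalytic domain with the E488Q change, which is known to raise editing and to relax the preference of the enzyme for the bases around the adenosine. Hrp48 is an hnRNP, encoded by Hrb27C, that binds transcripts in the nucleus and cytoplasm and is known for its part in splicing, RNA localization and repression of translation.

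All libraries were from poly(A) RNA of S2 cells, an embryonic Drosophila line with hemocyte-like features, which were transiently transfected, induced with copper sulfate and sorted by fluorescence. The groups were Hrp48 fused to the E488Q domain (Hrp48 HyperTRIBE, 2 libraries), FMRP, a translational regulator encoded by Fmr1, fused to the same domain (FMRP HyperTRIBE, replicate 1), Hrp48 fused to the domain without that change (Hrp48 TRIBE, 2 libraries), and the E488Q domain with no RNA-binding protein (deaminase alone, 2 libraries). No label tells whether the replicates of a group came from separate transfections, and p-values therefore measure only the spread between these libraries, which may be technical. In RNA pooled from many cells, moderate editing in every cell and strong editing in a few cells cannot be told apart, nor can edits on 1 molecule from edits on different molecules.

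The Hrp48 HyperTRIBE libraries listed 19706 and 22803 sites, FMRP HyperTRIBE 4694, Hrp48 TRIBE 1252 and 1400, and the deaminase alone 13 and 459, so its replicate 1 stood far below every other library. Median coverage at listed sites was between 27 and 37 reads. Every listed site had at least 20 reads and 10% editing, so absence from a list can mean low coverage as well as low editing. The lists hold no expression levels. Of 20 hemocyte and matrix markers, 10 had a site in both Hrp48 HyperTRIBE libraries, against 0 of 10 neuronal markers.

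Most sites had few neighbours. Counted per gene, 6025 of 11234 sites had no other site within 100 bases and 598 had 3, which is just below the rule. Clustered sites had 4 neighbours in 202 cases, 5 in 93, 6 in 27 and 7 in 11. The sites with 3 neighbours had median levels of 21.7% and 19.7% in the 2 HyperTRIBE libraries, and those with 4 neighbours had 21.4% and 19.7%. The values on the 2 sides of the threshold were close. Applied to replicate 1 alone the rule gave 1228 sites, and to replicate 2 alone 1551 sites. The shortest groups just outside the rule were 4 sites within 21 bases of Karl and 4 sites within 25 bases of CG12730. Just inside it, the shortest and longest clusters of exactly 5 clustered sites were 69 bases in CG5805 and 108 bases in hipk, which encodes a homeodomain-interacting protein kinase.

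Clusters were small. A single clustered site with its unclustered neighbours made up 25 clusters, and 38 clusters held 5 or more clustered sites. When every site of both libraries within 100 bases of a clustered site was added, the 100 clusters held 5 to 11 sites each, and 64 of them held 5. Their length with these flanking sites had a median of 149 bases and ran between 69 and 391 bases, and 12 clusters were longer than 200 bases. The gap between neighbouring sites of a cluster had a median of 26 bases, and 36 of 476 gaps (7.56%) joined adjacent bases. Among all gaps of up to 100 bases between sites of a gene, 5.91% did. Adjacent edited bases occurred in 29 clusters.

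**Figure D1:**
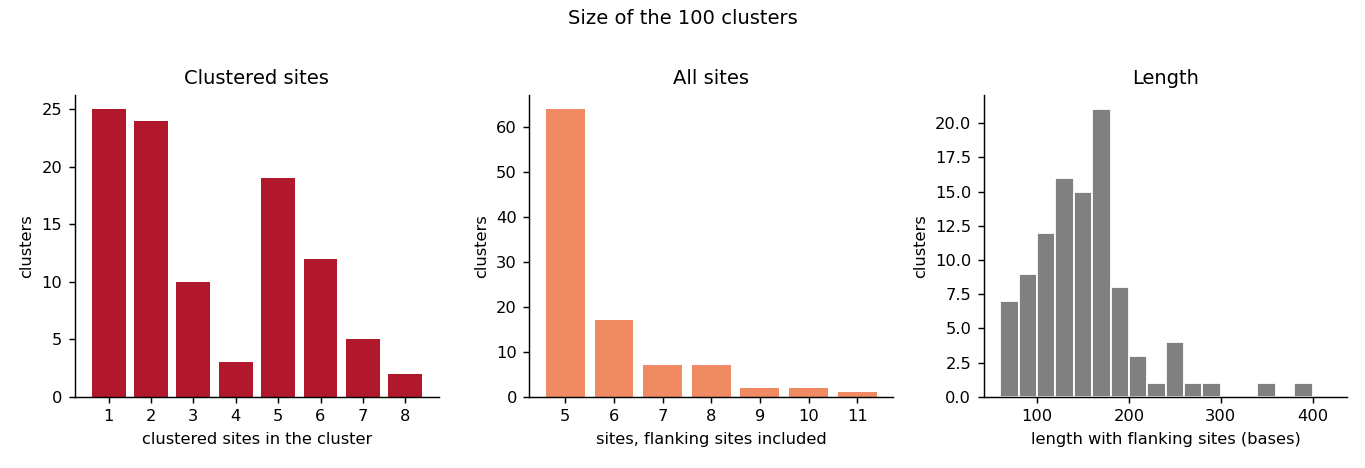
Number of clusters by clustered sites (left), by all sites with flanking sites included (middle) and by length in bases with flanking sites (right), for the 100 clusters. Most clusters hold 5 sites in all, and the longest spans 391 bases.

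The clusters with most clustered sites lay in genes of diverse function. Positions are those of genome build dm3. Lam, which encodes a nuclear lamin, had 8 clustered sites within 134 bases (2L:5545819-5545952, plus strand). CG10512 had 8 within 108 bases (3L:21200904-21201011, plus strand), and these were all of its sites. The next 5 clusters held 7 sites each. They lay in Socs36E, an inhibitor of JAK/STAT signalling (2L:18139131-18139373, minus strand), in CG11897, an ABC transporter gene (3R:24990267-24990500, plus strand), in Sam-S, S-adenosylmethionine synthetase (2L:113647-113826, plus strand), in CtBP, a transcriptional co-repressor (3R:8851675-8851831, plus strand), and in CG7130 (3L:22068306-22068403, minus strand). Gadd34, a regulatory subunit of protein phosphatase 1, and PGAP3, which remodels GPI anchors, were among the genes with clusters of 6 sites. The clusters of CG11897 and Socs36E were the longest with flanking sites, at 391 and 352 bases.

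Genes with many sites did not always hold a cluster. Of the 20 genes with most sites in both libraries, 15 held one. CG11897 had 31 sites, of which 7 were clustered, and CtBP had 26, of which 7 were clustered. SCAP had 29 sites and PlexA had 28, and no site of either had more than 3 neighbours (both were picked after their values were seen). Among the 805 genes with 5 or more sites, 12.05% held a cluster. The 3 genes pico, an actin regulator, CG5805 and Unc-76 held 2 clusters each. With flanking sites, the 2 of Unc-76 met at a shared site (X:1986739), which is counted in both. Hrb27C itself had 13 sites with at most 2 neighbours, Fmr1 had 8 with at most 3, and Adar had 10 with at most 2, so none of the genes behind the constructs held a cluster.

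Clusters were on both strands and most chromosome arms. Of the clustered sites, 85 were on 3R (25.9%, against 24.3% of all sites of both libraries), 77 on 2R (23.5% against 22.5%), 70 on 3L (21.3% against 18.2%) and 65 on 2L (19.8% against 19.2%). The X chromosome held 30 clustered sites (9.15%), against 13.1% of all sites. Chromosome 4 held 0 of 328, against 2.26% of all sites (245 sites). A count of 0 allows a share of up to 0.915% only if the 328 sites were independent. The rule picks sites in groups, so the limit is wider than this, and the difference was not tested. Of the clustered positions, 2 were marked as intronic, both in CG30438. Because 3 clusters overlapped a further gene (CG7694 with fray, CG10802 with CR44999, and CG30159 with Tsp42Ea), the 100 clusters covered 97 separate regions by their clustered sites. Reads from the overlapping genes cannot be told apart.

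By gene group, 3.01% of all genes with sites in both libraries held a cluster. A cluster needs at least 5 sites of a gene, and among the 805 genes with that many it was 12.05%. The lists were not matched for sites per gene. Counted per gene, the 21 signalling genes had 156 sites, and all 3220 genes had 11234. No excess of clusters in a list can therefore be read from the counts below. Of 21 signalling genes with sites, 3 held a cluster (CtBP, Socs36E and hipk). Of 23 RNA-binding and splicing genes it was 2, Hrb87F, another hnRNP, and Rox8, a TIA-1 homologue. Of 21 cytoskeletal genes it was 2 (pico and rhea, the fly talin), and of 11 cell cycle genes 2 (CycG and CycD, both cyclins). In each of the following lists 1 gene held a cluster: 13 chaperones (Hsc70-5, a mitochondrial Hsp70), 12 lamina and pore genes (Lam), 12 deadenylation and repression genes (the deadenylase subunit Pop2), 21 chromatin and transcription regulators (cnc, the fly Nrf2 homologue), 10 hemocyte and matrix genes (the matrix protein Ppn) and 48 cytosolic ribosomal protein genes (RpL12). The lists are selections and not whole classes. Genes on none of them held clusters too, such as Trc8 and Uev1A of ubiquitin conjugation, Hsc70Cb and Csp of the chaperones, and the transcription factor genes pnr, crol and exd, some of them picked after their values were seen. Of the listed genes, no cluster was found among 26 translation factor and tRNA synthetase genes, 20 secretion genes and 14 ubiquitin and proteasome genes with sites.

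Editing levels of clustered sites spanned a wide range. They ran between 10% and 75.3% in replicate 1 and between 10% and 84.6% in replicate 2, with medians of 21.8% and 20.7% over 39 and 48 median reads. The other 10523 sites of both libraries had medians of 19.8% and 18.2% over 36 and 47 reads. The 873 unclustered sites of the same genes lay in between, at 20.5% and 19.05%. Over 50% of reads were edited at 12 clustered sites in both libraries. The levels of the 2 libraries were correlated across the 328 clustered sites, which share libraries, genes and reads (Pearson r = 0.781, Spearman rho = 0.696). The median absolute difference between the libraries was 5.29 percentage points.

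Within a cluster, sites differed in level. With flanking sites, the highest site of a cluster had a median level of 40.8% over the 100 clusters, the next site 29.3% and the lowest 13.1%, as means of both libraries. The listing minimum of 10% bounds the lowest value. The highest level was a median of 3.04 times the lowest, and the range within a cluster had a median of 27.3 percentage points. The order was largely shared by the libraries: the same site was highest in both in 74 of 100 clusters and in 10 of the 12 clusters with 8 or more sites. The rank correlation of a cluster's levels between the libraries, over its 5 to 11 sites, was positive in 95 clusters with a median of 0.7. The highest site was the first or last of the cluster in 35 cases, and end sites were on average 36.0% of the sites of a cluster. The 100 clusters cover 97 separate regions by their clustered sites. Regions listed under overlapping genes thus enter these counts and medians more than once.

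**Figure D2:**
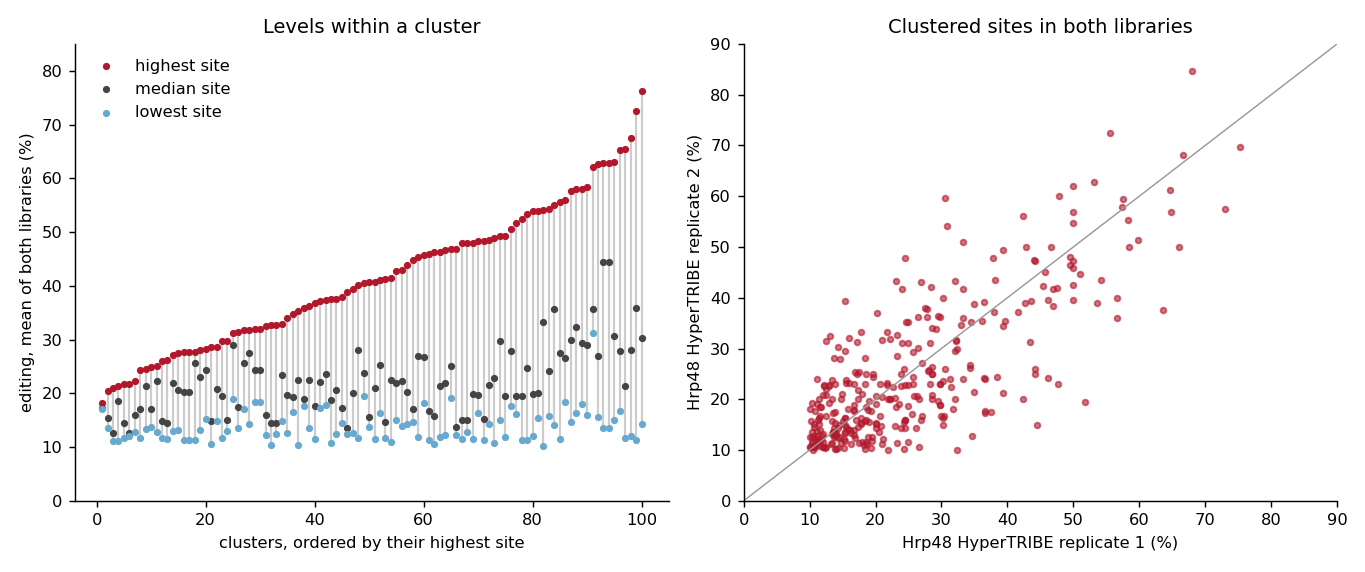
Left, the highest, median and lowest editing level (mean of both Hrp48 HyperTRIBE libraries, percent) of the sites of each of the 100 clusters, flanking sites included, ordered by the highest site; right, the level of each clustered site in replicate 2 against replicate 1, with the line of equal levels. Highest sites run up to 76.3% while lowest sites mostly stay under 20%.

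The widest ranges over clustered sites were those of Trc8, Sam-S and CG7130. In Trc8, an E3 ubiquitin ligase gene, mean levels within 90 bases lay between 14.4% and 76.3%. In Sam-S, position 113727 had levels of 75.3% and 69.7% and the adjacent position 113728 had 16.3% and 13.3%, at 92 to 99 reads. In CG7130, mean levels lay between 12.05% and 67.4%, and position 22068336 had 66.7% and 68.2%, and the base before it had 34.3% and 26.2%. Position 22068343 of the same gene had 64.9% and 56.8%, and the base after it had 21.1% and 20.5%. With flanking sites, the narrowest range was that of cv-2, a BMP-binding protein gene named after its values were seen, with 5 sites between 17.1% and 18.3%. Over clustered sites alone, where there were 2 or more, the narrowest ranges were those of Atg1, a kinase of autophagy (0.417 points over 2 sites), oys, a lysophospholipid acyltransferase gene (0.851), and mfrn, mitoferrin (1.06). By the median of clustered sites, CG3061 (58.0%), CG4670 (48.3%) and Sam-S (45.7%) were highest, and CG1910 (11.2%), fra, the netrin receptor frazzled (12.4%), and Ugt86Da (12.4%) were lowest. Apart from Sam-S, these medians rest on 1 clustered site each.

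Hrp48 TRIBE, whose domain lacks the E488Q change, listed 38 of the 328 clustered sites in replicate 1 (11.6%, Wilson 95% interval 8.56 to 15.5%) and 56 in replicate 2 (17.1%, 13.4 to 21.5%). Over all sites of both Hrp48 HyperTRIBE libraries these shares were 6.97% and 8.64%. In at least 1 TRIBE library 71 clustered sites were listed (21.6%, 17.5 to 26.4%), against 12.9% of all sites, and in both 23 were listed (7.01%, 4.72 to 10.3%), against 2.75%. Unclustered sites of the same genes had shares of 6.41% and 9.05% in the 2 libraries and 2.41% in both. The clustered share exceeded that of all sites in each TRIBE library. With the rule on a single HyperTRIBE library, 13.4% (replicate 1) and 12.4% (replicate 2) of clustered sites were listed in at least 1 TRIBE library, against 7.95% and 7.17% of all sites of that library. In both TRIBE libraries it was 3.58% and 2.58%, against 1.56% and 1.37%. These intervals cover counting error only, and the sites of a cluster share transcripts and reads, so no test was made over sites.

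The listing with TRIBE moved with both level and coverage with HyperTRIBE. Clustered sites listed in either TRIBE library had a median HyperTRIBE level of 31.3%, and those not listed had 19.5%. Their median coverage was 47 and 60 reads in the 2 HyperTRIBE libraries, and 37 and 46 reads at those not listed. The parts of level and coverage were not told apart. Within bands of that level, chosen after the data were seen, TRIBE listed 12 of 147 clustered sites with 10 to 20% editing (8.16%, interval 4.73 to 13.7%), against 6.14% of the other sites in the band. It listed 21 of 88 with 20 to 30% (23.9%, 16.2 to 33.7%), against 13.4%, and 38 of 93 with 30% or more (40.9%, 31.4 to 51.0%), against 30.4%. The intervals of clustered and other sites overlapped in the lowest and the highest band. At sites with 50 or more reads in both HyperTRIBE libraries the shares were 35.7% of 84 clustered sites and 20.6% of the other 2736.

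TRIBE sites were spread over many clusters. Clustered sites listed with TRIBE fell in 40 clusters, of which 25 held 1 and 15 held 2 or more. In 12 clusters each TRIBE library listed a clustered site. The cluster of pnr, a GATA transcription factor gene (3R:11866168-11866266), had all 6 of its clustered sites listed with TRIBE. Sam-S had 5 of 7, CG11577 had 4 of 6, and Lam and CG10512 had 4 of 8 each. The sites of CG10512 were listed in TRIBE replicate 2 only.

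The deaminase alone listed 0 clustered sites in replicate 1 and 11 in replicate 2 (3.35%, 1.88 to 5.90%). The 0 allows a share of up to 0.915% if sites were independent, and more since sites of a cluster are not. Over all sites of both Hrp48 HyperTRIBE libraries the shares were 0.0922% and 1.31%, and 1.34% for either library. Hrp48 TRIBE thus listed 38 and 56 clustered sites and the deaminase alone 0 and 11, and the groups did not overlap. The means were 47 ± 12.7 for Hrp48 TRIBE and 5.5 ± 7.78 for the deaminase alone (SD, n = 2 each; two-sided exact permutation test, p = 0.333, the smallest that 2 against 2 can give). As a share of the sites a library listed, clustered sites made up 3.04% and 4% of Hrp48 TRIBE sites, and 0% and 2.40% of deaminase-alone sites. The number of sites that a library listed thus moved with the count, and its part in the difference was not tested. The deaminase-alone libraries carry other library-set names than the Hrp48 libraries, so construct and library set cannot be told apart.

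The 11 sites of the deaminase alone lay in 7 clusters. Those of crol, an ecdysone-regulated zinc finger gene, held 3. At crol position 11796346, Hrp48 HyperTRIBE levels were 50% and 39.6% and the deaminase alone had 56.5% (23 reads). CG10512 held 2. At position 21200997, Hrp48 HyperTRIBE had 54.2% and 43.6%, against 68.2% with the deaminase alone (22 reads), and at 21200939 it had 28.6% and 34.0%, against 44.4% (27 reads). The crol positions 11796290 and 11796345 went the other way, with 30.2% and 40% and with 15.4% and 16.3% with Hrp48 HyperTRIBE, against 23.3% and 13.04% with the deaminase alone. Over all 11 sites the single deaminase-alone library lay above both Hrp48 HyperTRIBE libraries at 6, between them at 2 and below both at 3. The same count was not made at the 131 unclustered sites of both HyperTRIBE libraries that it listed. It is therefore not a result about clusters. CG11897 held 2 sites, and Socs36E, Lam, CycG and Ire1, the sensor of the unfolded protein response (named because it completes the count), held 1 each.

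**Figure D3:**
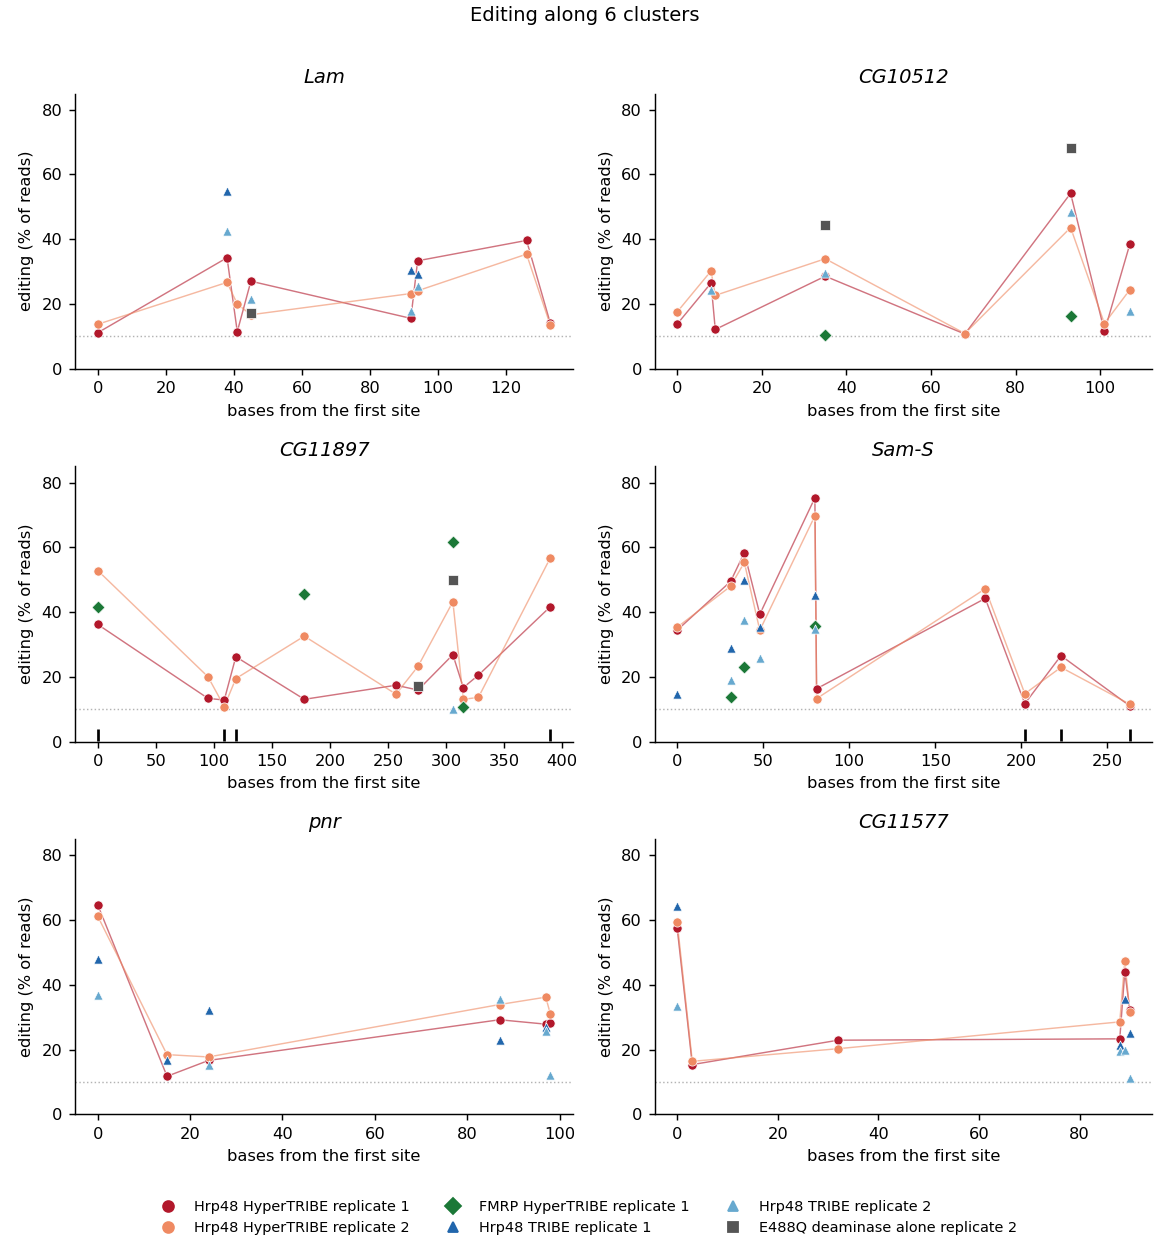
Editing level (percent of reads) against distance in bases from the first site, along the chromosome, for the clusters of Lam, CG10512, CG11897, Sam-S, pnr and CG11577, with flanking sites; circles are the 2 Hrp48 HyperTRIBE libraries, diamonds FMRP HyperTRIBE, triangles the 2 Hrp48 TRIBE libraries and squares the deaminase alone (replicate 2). Ticks on the lower axis mark flanking sites, the dotted line is the listing minimum of 10%, and a missing marker is a site that was not listed; the Sam-S profile peaks at 75.3% and 69.7%.

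Sites listed in all 4 Hrp48 libraries allowed the levels of the 2 domains to be compared. Of 298 such sites, 23 were clustered, in 11 genes. Selection by the listing minimum in every library applies to all of them. On log2 odds of editing, with limma fitted over the 298 sites and Benjamini-Hochberg adjustment at 0.05, 83 of the 298 sites were higher with HyperTRIBE (27.9%) and 0 were lower. Of the 23 clustered sites, 4 were higher (17.4%) and 0 were lower. At an unadjusted limma p under 0.05 it was 6 and 0 clustered sites, against 116 and 0 of the 298. The median log2 odds difference was 0.72 for the clustered sites and 0.86 for all 298. The fit gave all 298 sites the same standard error, so each p rests on the spread between libraries pooled over sites.

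The 4 sites lay in Sam-S, Hsc70-5 and Hrb87F. Sam-S position 113727 had 75.3% and 69.7% with Hrp48 HyperTRIBE, against 45.2% and 34.7% with Hrp48 TRIBE. The libraries of the constructs did not overlap, and the difference of 1.97 log2 odds (SE 0.58, limma adjusted p = 0.00628) was the largest of the clustered sites. Sam-S position 113678 had 49.4% and 48.0% with HyperTRIBE, against 29.0% and 18.9% with TRIBE (1.58 log2 odds, adjusted p = 0.0282). Hsc70-5 position 10140412 had 43.5% and 39.4% with HyperTRIBE, against 27.3% and 13.04% with TRIBE (1.51, adjusted p = 0.0371). Hrb87F position 9483910 had 59.8% and 51.4% with HyperTRIBE, against 29.6% and 31.2% with TRIBE (1.48, adjusted p = 0.0407). At each of the 4 the lowest HyperTRIBE level exceeded the highest TRIBE level.

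These calls rest on few libraries. Leaving out 1 library leaves a lone library in a group, which is then taken to vary like the others. The calls cannot be checked that way, and only differences are given. Without either HyperTRIBE library, the differences at the 4 sites lay between 1.24 and 2.17 log2 odds. Without TRIBE replicate 1 they lay between 1.45 and 2.29, and without TRIBE replicate 2 between 0.877 and 1.66. In the latter fit, Lam position 5545857 (-1.45 log2 odds) and pnr position 11866192 (-1.17) were lower with HyperTRIBE. A Fisher exact test on reads pooled per construct called 8 of the 23 clustered sites higher and 0 lower. Over all 298 sites it called 127 higher and 1 lower.

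The remaining tested sites of a cluster varied in size and direction. The constructs did not overlap at 14 of the 23 clustered sites with HyperTRIBE above (60.7% of the 298), and at 1 with HyperTRIBE below (4.7% of the 298). That site was Lam position 5545857, with 34.3% and 26.7% with HyperTRIBE, against 55% and 42.5% with TRIBE (-1.10 log2 odds, limma adjusted p = 0.146). The other Lam sites overlapped between the constructs, with 33.3% and 24.1% against 29.2% and 25.6% at 5545913. In pnr, position 11866168 had 64.7% and 61.2% with HyperTRIBE, against 48.1% and 36.9% with TRIBE (1.18, adjusted p = 0.112), and at 11866255 the constructs overlapped, with 29.2% and 33.9% against 23.1% and 35.7%. Of the 4 tested sites in CG11577, differences ran between 0.39 and 1.13 log2 odds, and none passed. Socs36E position 18139296 had 32.0% and 29.5% with HyperTRIBE, against 16.4% and 12.3% with TRIBE (1.37, adjusted p = 0.0605).

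The Hrp48 HyperTRIBE and Hrp48 TRIBE libraries of replicate 1 share a library-set name in the deposited headers, as do those of replicate 2. Within the replicate 1 set the HyperTRIBE level was above the TRIBE level at 18 of the 23 clustered sites (median difference 6.15 percentage points). Over all tested sites it was above at 205 of 298 (7.62 points). Within the replicate 2 set it was above at 20 of the 23 (15.9 points) and at 265 of all 298 (16.6 points). Coverage at the 23 clustered sites was a median of 59 and 73 reads with HyperTRIBE, against 28 and 57 with TRIBE.

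**Figure D4:**
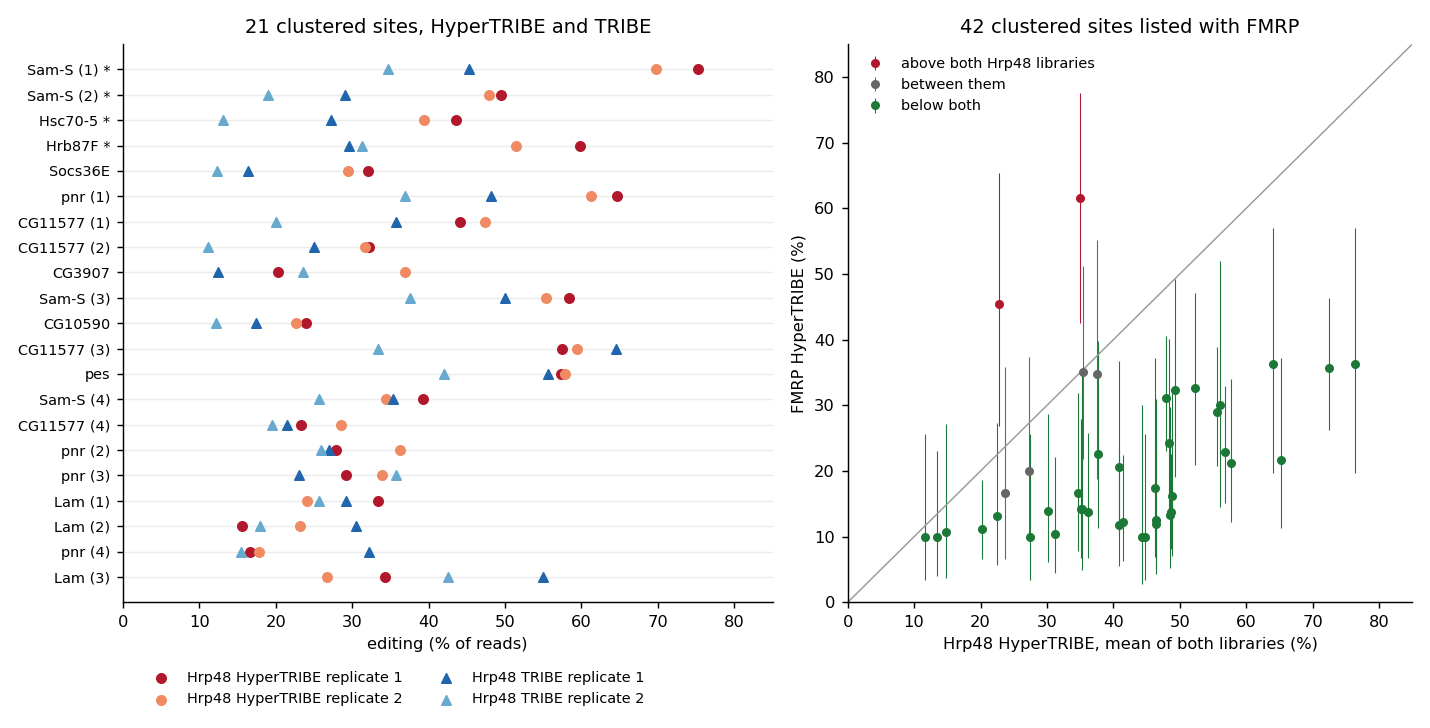
Left, editing level (percent of reads) in each Hrp48 HyperTRIBE and Hrp48 TRIBE library at 21 of the 23 clustered sites listed in all 4, ordered by the log2 odds difference, numbers in parentheses telling sites of a gene apart and asterisks marking limma adjusted p under 0.05; right, the FMRP HyperTRIBE level with its Wilson 95% interval against the mean Hrp48 HyperTRIBE level at the 42 clustered sites listed with FMRP. The 4 marked sites have separate libraries, and 36 of the 42 FMRP levels lie below both Hrp48 libraries.

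FMRP HyperTRIBE listed 42 clustered sites (12.8%, interval 9.61 to 16.9%), against 20.4% of all sites of both Hrp48 HyperTRIBE libraries. Unclustered sites of the same genes were listed in 15.9% (13.6 to 18.5%). The clustered share lay below that of all sites, while its interval overlapped that of the same genes' other sites. The order was the opposite with Hrp48 TRIBE. It was also the opposite with replicate 2 of the deaminase alone (3.35% of clustered against 1.31% of all sites), whose replicate 1 listed 0 against 0.0922%. As a share of the 4694 FMRP sites the 42 made up 0.895%. With the rule on a single Hrp48 HyperTRIBE library, FMRP listed 8.31% (replicate 1) and 7.09% (replicate 2) of clustered sites, against 13.4% and 12.5% of all sites of that library. Only replicate 1 of FMRP HyperTRIBE was used, without a replicate check, and no p is given. It carries a library-set name of its own in the deposited headers, so protein and library set cannot be told apart.

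The FMRP shares are also given by the same bands of Hrp48 HyperTRIBE level. FMRP listed 3 of 147 clustered sites with a Hrp48 HyperTRIBE level of 10 to 20% (2.04%, 0.696 to 5.83%), against 12.8% of the other sites in this band (11.9 to 13.7%). In the band of 20 to 30% it listed 6 of 88 (6.82%, 3.16 to 14.1%), against 24.6% (23.1 to 26.2%). With 30% or more it listed 33 of 93 (35.5%, 26.5 to 45.6%), against 37.6% (35.4 to 39.7%). The clustered share was the lower one in each band, by least in the highest. Sites of a cluster share transcripts and reads, so these intervals cover counting error only and no test was made between bands. At 50 or more reads the shares were 11.9% of clustered sites and 25.3% of the others. Whether coverage in the FMRP library, which is known only at its listed sites, moved with these shares was not tested.

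**Figure D5:**
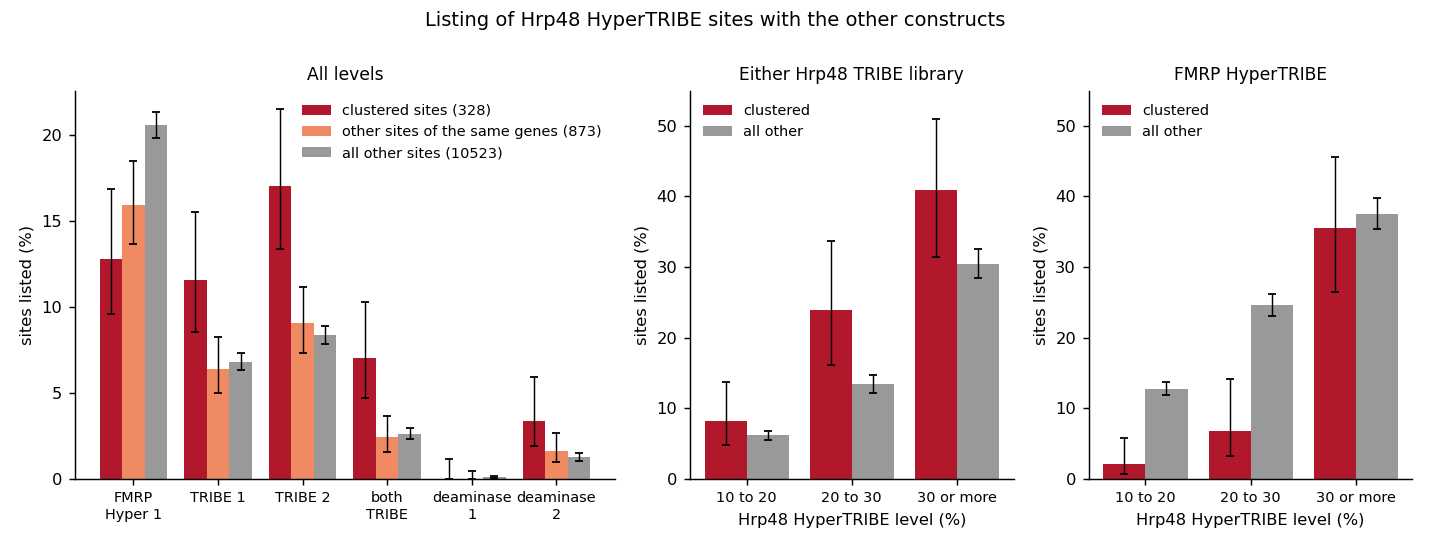
Share of sites of both Hrp48 HyperTRIBE libraries (percent, bars with Wilson 95% intervals) that were also listed in each other library, for clustered sites, other sites of the same genes and all other sites (left), and for clustered and all other sites by their Hrp48 HyperTRIBE level in percent, with either Hrp48 TRIBE library (middle) and with FMRP HyperTRIBE (right). Against all other sites, the bars of clustered sites are higher with TRIBE and with deaminase alone replicate 2, and lower with FMRP. By level, the intervals overlap for TRIBE at 10 to 20% and at 30% or more, and for FMRP at 30% or more.

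Where FMRP did edit a cluster, its level was mostly low. Over the 42 sites the median level was 16.7% with FMRP, against 43.2% and 41.7% with Hrp48 HyperTRIBE. FMRP lay below both Hrp48 libraries at 36 of them (85.7%), between them at 4 and above both at 2. At the other 2167 shared sites the medians were 17.5% with FMRP and 25% and 23.5% with Hrp48, and FMRP lay below both at 60.04% and above both at 20.1%. The Hrp48 medians at shared sites thus lay well above those outside clusters, and the FMRP medians differed by less than 1 percentage point.

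Clustered sites listed with FMRP fell in 28 clusters, 10 of which held 2 or more. Of the 28, 17 also had a clustered site listed with TRIBE. In Sam-S, position 113727 had 35.7% with FMRP, against 75.3% and 69.7% with Hrp48 HyperTRIBE, and position 113686 had 22.9%, against 58.3% and 55.3%. The order of the 3 Sam-S sites was the same with both proteins. In Trc8, positions 25325249 and 25325254 both had 36.4% with FMRP (22 reads each), against 55.6% and 72.4% and against 68.0% and 84.6% with Hrp48. The widest gap was in UGP, UDP-glucose pyrophosphorylase, named after its values were seen: position 9344776 had 21.6% with FMRP, against 73.1% and 57.5% with Hrp48. CG8405 and CG6701 each had 3 sites listed with FMRP, and 4 of these 6 lay below both Hrp48 libraries.

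CG11897 held both clustered sites where FMRP lay above. Position 24990478 had 61.5% with FMRP (interval 42.5 to 77.6%, 26 reads), against 26.8% and 43.2% with Hrp48 HyperTRIBE. Position 24990350 had 45.5% (26.9 to 65.3%, 22 reads), against 13.04% and 32.6%. Both intervals reach down to the higher Hrp48 level, so the excess was not separable from it at this depth. Position 24990478 was also listed with the deaminase alone at 50% (28 reads) and with Hrp48 TRIBE replicate 2 at 10% (20 reads). The third clustered site listed with FMRP there, 24990487, had 10.7%, against 16.7% and 13.04%.

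Across constructs, 231 of the 328 clustered sites were listed with none of the other constructs, a share not counted over all sites. In 48 of the 100 clusters, no clustered site was listed with another construct. Flanking sites were so listed in several of these 48. CG1673, named after its values were seen, had 4 and 3 in the 2 TRIBE libraries. By clustered sites alone, TRIBE without FMRP marked 23 clusters, FMRP without TRIBE 11, and both marked 17. At CG7130, whose clustered sites reached 68.2% with Hrp48 HyperTRIBE, no clustered site was listed with TRIBE, FMRP or the deaminase alone, while its flanking site at 22068474 had 29.1% and 22.5% with HyperTRIBE and 10.3% and 11.5% with TRIBE.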

How the data were processed

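The authors deposited 1 list of edited sites per library. Each line gives read counts for the bases, edited reads, total reads and their percent. The deposited score, 10 times the percent, was not used. Picard 2.8.2, TopHat2 2.1.1 and dm3 are named in the submitters' processing notes, without roles. The thresholds for listing a site are not given there. Positions, gene names and exon or intron marks are those of the deposited lists. Across the 52199 lines the lowest values were 20 reads and 10%. A site was matched by position, strand and gene, and counted once by position except where lines per gene are named. FMRP HyperTRIBE replicate 2 and the other samples of the series' 32 were not analysed here.

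Clustered sites of 1 gene at most 100 bases apart were joined. Flanking sites, level bands and the read minimum of 50 were chosen after the data were seen. The sites and gene lists were chosen with earlier results of these data known, so they are not independent evidence. Shares carry Wilson 95% intervals, and a count of 0 was taken to allow 3; PCR reads are not independent molecules. For sites present in all 4 Hrp48 lists, 0.5 was added to edited and to unedited reads, and the log2 odds of HyperTRIBE and TRIBE were compared in R 4.3.3 by limma 3.58.1 without a block, using Benjamini-Hochberg adjustment at 0.05. The fit gave every site the same standard error, 0.581. Neither read number nor a site's own spread between libraries therefore carries weight in it, and its p-values rest on the spread pooled over the sites. The script was tested on simulated reads. Same-numbered Hrp48 replicates share a number and a library-set name in the deposited headers; their deviations had a correlation of -0.0128 across 298 sites. An exact permutation test, two-sided, compared the numbers of clustered sites per library. Alternatives varied the neighbours, the window, the read minimum, the libraries and the test.

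Genes named are those of the 10 clusters and 10 genes with most clustered sites, the clusters with the highest, lowest, widest and narrowest levels, the 5 clusters with most sites listed with FMRP, TRIBE or the deaminase alone, the limma calls and tested sites of these clusters, up to 4 genes per list, the nearest cases at the threshold, and Hrb27C, Fmr1 and Adar; others are said to be picked later. One gene that this rule names is not reported here. Tables were made in Python 3.11.15 (pandas 2.3.3, scipy 1.17.1, numpy 2.4.6) and figures with matplotlib 3.10.9. No sequence is printed, because no genome of this build was used here.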

Additional observations from a re-analysis of the deposited data

How the results depend on the processing

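The number of clustered sites is set by the rule. It was 908 sites in 263 clusters with at least 3 other sites within 100 bases, 131 in 34 with at least 5, 41 in 19 with a window of 50 bases, 1146 in 257 with a window of 200 bases, and 65 in 19 with 50 or more reads in both libraries. With a single HyperTRIBE library it was between 1228 and 1551 sites in 329 to 397 clusters.

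The share listed in either TRIBE library was 32.1% with at least 5 other sites and 31.7% with the window of 50 bases, against 12.9% of all sites. With 50 or more reads it was 40%, against 20.6% of unclustered sites of that depth. A single HyperTRIBE library gave 12.4 to 13.4%, against 7.17 to 7.95% of all its sites. It was 31.4% when any listed site of the gene within 10 bases counted, a share not counted over all sites. Clustered sites have more near sites by the rule, so the values within 10 bases are not a result about clusters. The share in both TRIBE libraries was 15.3% with at least 5 other sites and 14.6% with the window of 50 bases, against 2.75% of all sites. It was 21.5% with 50 or more reads, against 7.02% of unclustered sites of that depth. With a single library it was 2.58 to 3.58%, against 1.37 to 1.56% of all its sites. The FMRP share was 17.1% with the window of 50 bases, against 20.4% of all sites, and 17.7% within 10 bases. With a single library it was 7.09 to 8.31%, against 12.5 to 13.4% of all its sites. The share with the deaminase alone was 7.32% with the window of 50 bases, against 1.34% of all sites, and 6.10% within 10 bases. Hrp48 TRIBE listed 32.5 to 50.5 more clustered sites per library than the deaminase alone when 1 library was left out.

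With the replicate number as a block, limma called 4 clustered sites higher and 0 lower, as without it; 2 pairs give a weak check of pairing, and the numbers were not taken to pair the libraries. With precision weights it called 6 higher, with 0.1 or 1 read added 4, and at 50 or more reads 1 of the 1 site left (Socs36E). Leaving out 1 library gave 0 to 11 higher and 0 to 2 lower, and the Fisher exact test on pooled reads 8 higher. Precision is limited by 20 to 121 reads per clustered site in replicate 1 and 21 to 119 in replicate 2.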

Other observations

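The same rule (at least 4 other sites of the gene within 100 bases) was also applied to the sites of each other library alone. This use of it was chosen after the data were seen. It found few clusters, some of them at clusters described above. Counted per gene, FMRP HyperTRIBE held 9 such lines in 4 genes (CG30159, CG3356, Tsp42Ea and ssx), out of 4869 lines (0.185%). The lines of CG30159 and Tsp42Ea, which overlap, are the same position (2R:2881542). Hrp48 TRIBE held 22 in replicate 1 (1.70% of 1291 lines) and 23 in replicate 2 (1.59% of 1444 lines), against 0 of 14 and 22 of 472 (4.66%) for the deaminase alone. In the Hrp48 HyperTRIBE libraries, each taken alone, 6.17% of 20451 lines and 6.73% of 23658 lines met the rule. Clustered Hrp48 HyperTRIBE sites made up 2 of the 9 lines with FMRP, both of them this position. They made up 11 of the 22 and 13 of the 23 with Hrp48 TRIBE. They made up 0 of the 22 with the deaminase alone. pnr and ytr met the rule in both TRIBE libraries, pnr with 8 and 5 sites. CG11577, Sam-S and Pvf2, a ligand of the receptor kinase Pvr, met it in replicate 1, and CG10512, Lam and Vha26, a subunit of the vacuolar ATPase, in replicate 2. Of these, ytr, Pvf2 and Vha26 held no cluster among sites listed in both Hrp48 HyperTRIBE libraries, where their sites had at most 3 neighbours. In a single Hrp48 HyperTRIBE library, ytr (replicate 1) and Pvf2 (replicate 2) did meet the rule. Pvf2 had 13 and 12 sites in the HyperTRIBE libraries, against 8 and 3 in the TRIBE libraries, and Vha26 had 13 and 11, against 5 and 8.

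The clusters of the deaminase alone lay mostly elsewhere. In replicate 2 they were in Arc1, which encodes a capsid-like protein, CycG and the noncoding RNA pncr009:3L. Arc1 had 2 and 4 sites in the Hrp48 HyperTRIBE libraries, against 12 with the deaminase alone, and pncr009:3L had 11 and 8, against 12. CycG also held a Hrp48 HyperTRIBE cluster, of 4 clustered sites, but no line met the rule in both constructs. The 2 clusters overlapped: that of the deaminase alone (3R:27423276-27423305) lay within the HyperTRIBE cluster with its flanking sites (27423134-27423305). At the flanking site 27423298, the highest of that cluster, HyperTRIBE had 50% and 41.7%, against 31.0% with the deaminase alone. At 27423305 it was 26.7% and 27.3%, against 28.6%. Only 1 of the 2 deaminase-alone libraries listed the sites of these deaminase-alone clusters.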
